A study of Nicotiana tabacum with 32 samples.

Results

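Wild-type tobacco cells (Nicotiana tabacum, cv. Xanthi, grown in suspension) and cells in which RNA interference silenced SIPK (salicylic acid-induced protein kinase, a MAP kinase) were hybridised together on 2-colour arrays, and the 2 controls of that experiment are compared here. The biotic control was taken at 0 h with no pretreatment, before cells of its set received harpin or megaspermin. The abiotic control was taken at 0 h after a pre-incubation of 30 min with xanthine, before cells of its set received xanthine oxidase. Each control had 3 arrays, and these 6 of the 32 arrays of the series were chosen by the labelled control alone, not by any value. Each array gave, per clone, the log2 ratio of SIPK-silenced cells and wild-type cells of that same control, so the quantity followed below is the genotype effect, and the control difference is the mean of the biotic arrays minus the mean of the abiotic arrays. Xanthine and culture set changed together between the controls and cannot be told apart.

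Both genotypes of both controls were kept dark at 25 C, in MS medium that had been renewed 3 days earlier. The cultures of a genotype were pooled and then divided into 3 volumes of 10 ml, and volumes of the 2 genotypes were paired at random on the slides. The p-values below therefore measure the spread between volumes of pooled cultures. Values above 0 are likely higher in silenced cells, since the query of each array is labelled as the silenced line and the reference as wild type. That order is reversed in the titles and the ratio itself is nowhere written out, so the sign of the genotype effect in each control rests on that reading. Of the clones with a gene name, 0 were named SIPK, which leaves silencing itself unmeasured, and ratios hold no levels against which the cell type could be checked.

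SIPK belongs to the kinases that plant cells switch on within minutes of wounding, pathogen elicitors or oxidative stress, and it passes the signal on to transcription factors and to enzymes such as those of ethylene synthesis. S-adenosylmethionine, made from methionine, is the shared precursor of ethylene and polyamines and the methyl donor of the cell. Xanthine is the substrate from which xanthine oxidase makes superoxide, and catalase removes the hydrogen peroxide that follows from it. Harpin is a bacterial elicitor protein and megaspermin an elicitor of Phytophthora megasperma.

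Values were present for 17926 to 21105 of the 32448 spots on the 6 arrays. Each clone was spotted in duplicate and its 2 spots were averaged, which gave 15360 clones, of which 10223 had at least 2 values in each control and were tested. Correlations over clones were 0.818 to 0.915 between biotic control arrays, 0.779 to 0.864 between abiotic control arrays and 0.634 to 0.737 between arrays of different controls. A further abiotic control array with the dyes exchanged was kept out of the test and correlated at 0.639 to 0.707 with the abiotic control arrays. The median SD between arrays of a clone was 0.146 in the biotic and 0.156 in the abiotic control. Clone names were potato gene symbols, and a potato clone can also bind tobacco relatives of the named gene. Potato symbols made of a locus number are given with no role.

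The genotype effect differed between the controls for METK1, an S-adenosylmethionine synthetase, the catalase CAT1, which removes hydrogen peroxide, and the alcohol dehydrogenase ADH1, which carries out the last step of ethanol fermentation. Of 9 METK1 clones 8 were lower in the biotic control, with differences of -0.81 to -1.71. CAT1 stood higher there in 2 of 3 clones and ADH1 in its single clone. Over all clones, 383 of 10223 passed an adjusted p of 0.05 with limma (3.75%), 191 of them higher (1.87%) and 192 lower (1.88%) in the biotic control. At least 2-fold differences among these were found for 69 higher (0.675%) and 71 lower clones (0.695%), and the median size of a called difference was 0.91, or 1.88-fold, against 0.17 over all tested clones. The biotic and abiotic arrays of 382 of the 383 called clones did not overlap, which was also true of 13.8% of all tested clones on the higher side and of 15.1% on the lower side. Leaving out replicate 1 of the biotic control reduced the count to 182 of 9601 tested clones. Without biotic replicate 2 it was 241, and without abiotic replicate 1, 2 or 3 it was 221, 232 or 216.

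Over the 10223 clones the mean genotype effects of the 2 controls had a correlation of 0.78, a description over clones that share layout and labelling, and the median control difference was -0.0085. The SD of the genotype effect over clones was 0.53 in the biotic control and 0.48 in the abiotic control.

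**Figure D1:**
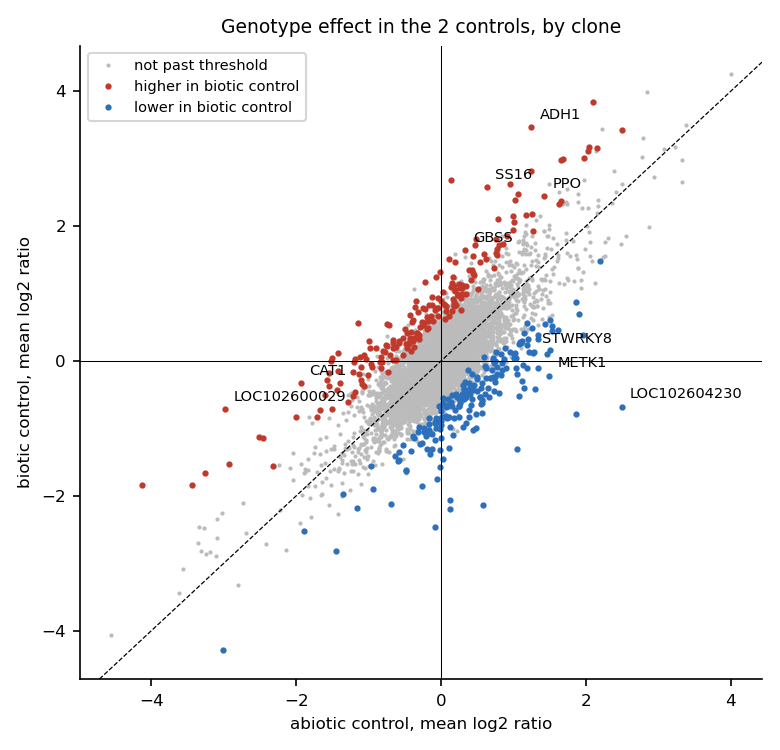
Mean log2 ratio of each tested clone in the abiotic control (x axis) and in the biotic control (y axis), 3 arrays each, with the 191 clones higher and the 192 clones lower in the biotic control in colour and the line of equal values dashed. METK1 lies below the line and near 0 on the y axis, and ADH1 and CAT1 lie above the line.

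METK1 had 9 clones on the array, which report on 1 gene or its close relatives and are not replicates. In clone 151452 the biotic control arrays read -0.40, -0.48 and 0.22 and the abiotic control arrays 1.12, 1.99 and 1.38. Every abiotic array lay above every biotic array, and 2 of the 3 biotic arrays lay below 0. The difference was -1.71 ± 0.29 (SE, n = 6 arrays, limma adjusted p = 0.000382), a 3.28-fold lower ratio in the biotic control. Clone 156267 differed by -1.41 ± 0.20 (limma adjusted p = 6.76e-05), and the other 6 called clones by -0.81 to -0.97. The clone that did not pass, 150144, stood at -0.58 ± 0.22 (limma adjusted p = 0.179), and its 6 arrays in the comparison did not overlap either. Its abiotic array with exchanged dyes read -0.0295, level with its highest biotic array at -0.033.

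Taken array by array over the 9 clones, the median METK1 ratio was -0.46, -0.36 and 0.044 on the biotic control arrays and 0.49, 0.997 and 0.69 on the abiotic control arrays. Biotic replicate 3 stood nearest to the abiotic arrays. On the dye-exchanged abiotic array the median was 0.81, inside the range of the other abiotic arrays. Clones 131687, 134844 and 139400 were called below 0 in the biotic control and above 0 in the abiotic control, with means of -0.45, -0.36 and -0.41 against 0.38, 0.45 and 0.55. In the other 6 clones the biotic genotype effect was not called. Calls of 2 METK1 clones depended on single arrays. For clone 158666 the limma adjusted p was 0.155 without biotic replicate 1, 0.0998 without biotic replicate 2, 0.141 without abiotic replicate 2 and 0.0737 without abiotic replicate 3. For clone 159303 it was 0.0933 without biotic replicate 1, 0.0591 without biotic replicate 2 and 0.118 without abiotic replicate 2.

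The other genes of methionine use and ethylene followed METK1 only in part. Of 19 clones of the methionine cycle, one-carbon metabolism and ethylene, 9 were lower in the biotic control, 8 of them METK1, and 0 higher. Over all tested clones 1.88% were lower and 1.87% higher. The list had a median of -0.71 against -0.0085 over all tested clones. The 9th lower clone was of MS, the methionine synthase that regenerates methionine. MS clone 137653 read 0.16, 0.23 and 0.38 on the biotic arrays and 0.97, 1.22 and 1.04 on the abiotic arrays. The groups were apart, and the difference was -0.82 ± 0.19 (limma adjusted p = 0.00938). That call was lost without biotic replicate 1 (limma adjusted p = 0.0584) or abiotic replicate 2 (limma adjusted p = 0.059). The other 4 MS clones stood between -0.16 and -0.71 and did not pass. Clones 155719, 158788 and 162738 passed with arrays scaled to a common spread (limma adjusted p = 0.0477, 0.0106 and 0.00378) and with array weights (0.0358, 0.000823 and 0.00123).

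ERS, an ethylene receptor, had the opposite sign. Its arrays read 3.05, 2.70 and 2.12 in the biotic and 1.42, 1.86 and 1.18 in the abiotic control, and the 2 groups did not overlap. The difference of 1.14 ± 0.40 did not pass in the model of all 30 arrays (limma adjusted p = 0.136). It did with the 2 groups fitted alone (0.0229) and with array weights (0.00104). The SD of ERS was 0.47 in the biotic and 0.34 in the abiotic control, and 1.02 at 4 h of megaspermin. Clones of the acireductone dioxygenase ARD, which recycles the methylthio group of S-adenosylmethionine (-0.020), of the cystathionine beta-lyase CBL, which makes homocysteine (-0.21 and 0.016), and of the serine hydroxymethyltransferase SHMT, which loads folate with its carbon unit (0.65), did not pass.

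**Figure D2:**
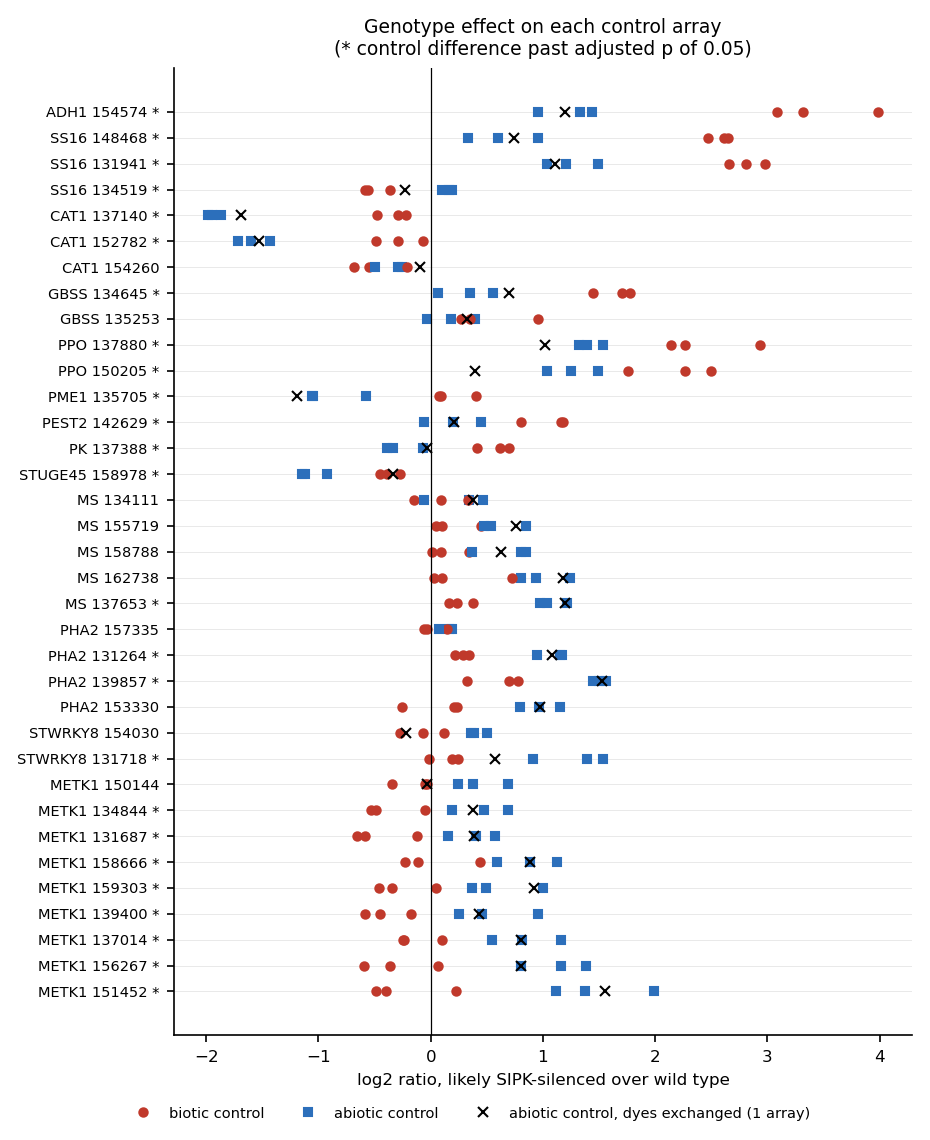
Log2 ratio on each control array (x axis) for every clone of 13 gene symbols (y axis, clone number beside the symbol): circles are the 3 biotic arrays, squares the 3 abiotic arrays and crosses the single abiotic array with exchanged dyes. For METK1 every square lies to the right of every circle of the same clone, whereas for ADH1 and for 2 CAT1 clones the circles lie to the right.

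ADH1 showed the largest difference among clones with a gene symbol other than a locus number. Its clone, 154574, read 3.99, 3.32 and 3.09 on the biotic arrays and 0.96, 1.44 and 1.33 on the abiotic arrays, with 1.20 on the array with exchanged dyes. ADH1 was above 0 on all of these arrays, and the biotic values were all above the abiotic ones. The difference was 2.22 ± 0.35 (95% interval 1.51 to 2.94, limma adjusted p = 0.00021), or 4.67-fold. LDH-2, a lactate dehydrogenase and the other member of the fermentation list, stood at 0.013 (limma adjusted p = 0.993).

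For CAT1 the ratio lay further below 0 in the abiotic control in 2 of its 3 clones. Clone 137140 read -0.30, -0.22 and -0.48 on the biotic arrays and -1.87, -1.95 and -1.99 on the abiotic arrays. The abiotic arrays lay close together and far below the biotic ones. The difference was 1.61 ± 0.18 (limma adjusted p = 8.89e-07), or 3.05-fold, and the genotype effect was called below 0 in both controls. Clone 152782 gave 1.30 ± 0.22 (limma adjusted p = 0.000396), with a biotic mean of -0.28 that was not called (limma adjusted p = 0.184). The remaining clone, 154260, overlapped between the controls and stood at -0.14 ± 0.26 (limma adjusted p = 0.934), so the clones under this symbol did not report alike. Of 11 redox clones only these 2 were called, both higher, beside 1.87% of all tested clones. The alternative oxidase AOX, a terminal oxidase of mitochondria (0.12), the dehydroascorbate reductases DHAR and DHAR2, which regenerate ascorbate (-0.26 to 0.082), and the uncoupling protein UCP of the mitochondrial membrane (-0.10 and -0.088) did not pass, and the list's median was -0.040.

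GBSS, the granule-bound starch synthase that makes amylose, read 1.78, 1.44 and 1.71 on the biotic and 0.35, 0.56 and 0.069 on the abiotic arrays in clone 134645. These groups were well apart (difference 1.32 ± 0.20, limma adjusted p = 0.00035), while its other clone overlapped and stood at 0.34. In the abiotic control the GBSS genotype effect was not called (mean 0.32, limma adjusted p = 0.109). Of 5 cell wall clones 3 were higher and 0 lower, with a median of 0.77, beside 1.87% of all tested clones higher and a median of -0.0085. PME1, a pectin methylesterase, read 0.093, 0.074 and 0.41 on the biotic and -0.58, -1.06 and -1.05 on the abiotic arrays, with a difference of 1.09 ± 0.21 (limma adjusted p = 0.00614). PEST2, another pectin methylesterase, differed by 0.85 ± 0.21 (limma adjusted p = 0.0153) and STUGE45, a UDP-glucose 4-epimerase, by 0.69 ± 0.19 (limma adjusted p = 0.0416). Clone 153358 of the epimerase STUGE51, at 0.77, lay just outside the threshold (limma adjusted p = 0.0502).

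The STUGE45 call was lost on leaving out any of the 6 arrays (limma adjusted p from 0.0747 to 0.178), and its array with exchanged dyes, at -0.34, lay among the biotic arrays. The PEST2 call was lost without biotic replicate 1 or 3 (limma adjusted p = 0.0878 and 0.0681) or abiotic replicate 2 or 3 (0.0545 and 0.11). PK, the pyruvate kinase of glycolysis, was the other called clone among 25 of carbon metabolism (2 higher, 0 lower, median 0.13). Over all tested clones 1.87% were higher and 1.88% lower. PK differed by 0.84 ± 0.19 (limma adjusted p = 0.0102), and lost its call without biotic replicate 1 or 2 (limma adjusted p = 0.0513 and 0.0587) or abiotic replicate 1 or 3 (0.0619 and 0.0521). The 8 clones of GAPDH, a glyceraldehyde-3-phosphate dehydrogenase, ran from -0.073 to 0.59 and none passed.

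Of 12 defence clones, 2 of PPO were higher and 1 of STWRKY8 lower in the biotic control, beside 1.87% and 1.88% of all tested clones, and the list's median was -0.010. PPO, a polyphenol oxidase that turns phenols into quinones, read 2.93, 2.14 and 2.26 on the biotic and 1.39, 1.33 and 1.54 on the abiotic arrays in clone 137880. The ratio was above 0 on every array, and the biotic arrays were the higher ones by 1.03 ± 0.29 (limma adjusted p = 0.0391). The other PPO clone, 150205, differed by 0.91 ± 0.26 (limma adjusted p = 0.0416). Neither PPO call was robust to leaving out 1 array: on leaving out biotic replicate 1 or 3 or abiotic replicate 1, 2 or 3, the limma adjusted p ran from 0.058 to 0.293 for clone 137880 and from 0.061 to 0.257 for clone 150205. Without biotic replicate 1 the difference of clone 137880 was 0.78. STWRKY8, a WRKY transcription factor, went the other way. Clone 131718 read 0.24, 0.19 and -0.018 on the biotic and 1.54, 0.91 and 1.39 on the abiotic arrays, a difference of -1.14 ± 0.23 (limma adjusted p = 0.00297). The array with exchanged dyes read 0.57 for that clone, between the 2 groups. STWRKY8 clone 154030 stood at -0.49 ± 0.22 and did not pass (limma adjusted p = 0.325). The pathogenesis-related protein PR1B (-0.27 and 0.061) and HPL, the hydroperoxide lyase that makes leaf aldehydes (-0.18 and 0.20), did not pass.

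Among 12 clones of membrane transport, 2 were lower and 0 higher, beside 1.88% and 1.87% of all tested clones. Both were of PHA2, a proton pump of the plasma membrane. PHA2 clone 131264 read 0.34, 0.22 and 0.29 on the biotic and 1.15, 1.17 and 0.94 on the abiotic arrays, which did not overlap (difference -0.81 ± 0.17, limma adjusted p = 0.00474). Clone 139857 differed by -0.90 ± 0.24 (limma adjusted p = 0.0281). That call was lost on leaving out any array except biotic replicate 3, with a limma adjusted p of 0.0621 to 0.187. Clone 153330 stood at -0.91 ± 0.29 and did not pass (limma adjusted p = 0.0816), and clone 157335 stood at -0.13. PHA1, another pump of this kind, stood at 0.17 and did not pass.

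SS16 had clones in both directions. Its clone 148468 read 2.65, 2.47 and 2.61 on the biotic and 0.60, 0.96 and 0.33 on the abiotic arrays, a difference of 1.95 ± 0.29 (limma adjusted p = 8.1e-05), and clone 131941 differed by 1.57 ± 0.30 (limma adjusted p = 0.00137). Clone 134519 was lower by -0.65 ± 0.16 (limma adjusted p = 0.0147), a call that was lost without biotic replicate 1 or 2 (limma adjusted p = 0.0776 and 0.0718) or abiotic replicate 2 or 3 (0.059 and 0.0557). The clones under this symbol did not report alike.

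In 6 lists no clone passed: other amino acid and polyamine enzymes (3 clones, median -0.27), kinases and calcium signalling (3, median -0.0017), hormones other than ethylene (3, median -0.13), the cell cycle (4, median 0.12), flavonoid and aromatic synthesis (6, median -0.20) and the photosystem II subunit PSBR, the only green tissue marker with a clone (4, median -0.073). Over all tested clones 3.75% passed. The storage organ list held only GBSS, with 1 of 2 clones higher. The 3 kinases, the calcium-dependent kinases CDPK1 (0.24) and CDPK2 (-0.0017) and the SNF1-related kinase PKIN1 (-0.29), did not pass.

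**Figure D3:**
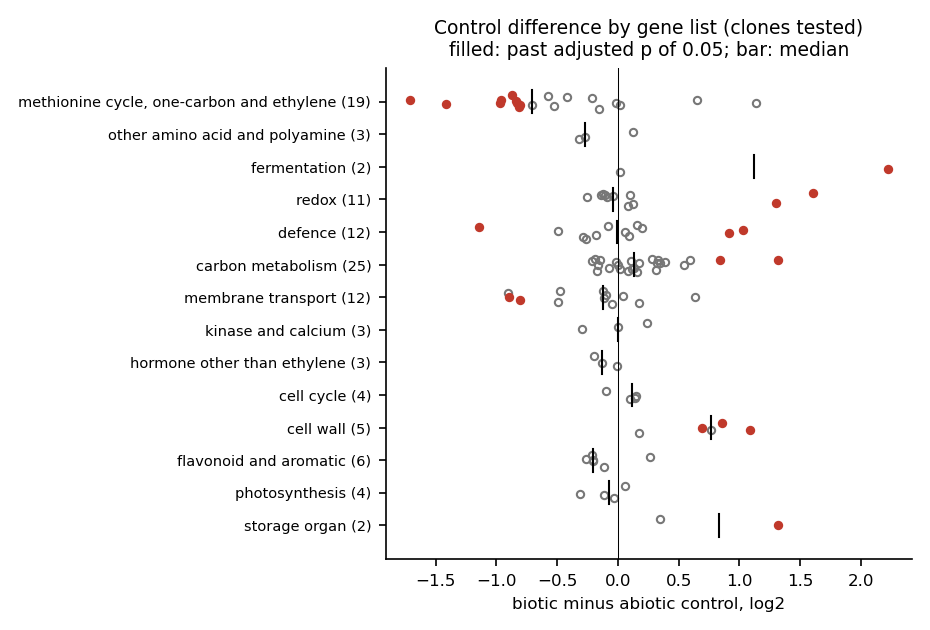
Control difference in log2 units (x axis) for each tested clone of 14 gene lists (y axis, number of clones in brackets), filled where limma's adjusted p was under 0.05, with a bar at the list's median. The filled points of the methionine and ethylene list are all below 0, down to -1.71, and those of the cell wall, redox, fermentation and carbon lists are above 0.

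Of 149 tested clones with a symbol other than a locus number, 25 passed (16.8%, 12 higher and 13 lower, 13 of 89 symbols), 8 of the lower ones being METK1. Of 630 clones with a locus number 52 passed (34 higher and 18 lower), and of 9362 clones without a symbol 305 did. Over all tested clones the share was 3.75%. The largest difference of all named clones belonged to LOC102604230, whose biotic arrays read -0.72, -0.57 and -0.75 and whose abiotic arrays read 2.45, 2.34 and 2.69. The ratio changed its sign between the controls, the array with exchanged dyes read 1.90, and the difference was -3.17 ± 0.22 (limma adjusted p = 2.34e-10), or 9.02-fold. Among numbered loci lower in the biotic control, LOC102589404 (-2.72 ± 0.23), LOC102604560 (-2.66 ± 0.25), LOC102586657 (-1.59 ± 0.19) and LOC102578902 (-1.28 ± 0.16) came next.

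At the other end LOC102600029 read -1.06, -0.61 and -0.47 on the biotic and -3.05, -2.48 and -3.41 on the abiotic arrays. It was below 0 throughout, as CAT1 was, and less so in the biotic control (2.27 ± 0.20, limma adjusted p = 2.71e-08). LOC102604696 changed its sign, from -1.05, -1.16 and -1.23 on the abiotic to 0.65, 0.47 and 0.55 on the biotic arrays (1.70 ± 0.18). LOC102577712 (1.36 ± 0.27), LOC102585483 (1.32 ± 0.20) and LOC102590714 (1.27 ± 0.24) were also higher. In many numbered loci with several clones only some clones were called. LOC102595943 had 1 of 6 clones called, and LOC102582822 had 1 of 4 called lower while 3 estimates lay above 0. For 8 numbered loci with several clones every tested clone was called in 1 direction. These loci, singled out after their values were seen, were LOC102581985 (0.83 to 1.17) and LOC102584296 (1.07 to 1.21) with 3 clones each, and, with 2 clones each, LOC102577712 (1.06 and 1.36), LOC102577429 (0.96 and 0.98), LOC102577562 (0.95 and 0.99), LOC102577720 (0.88 and 1.004), LOC102603986 (-0.89 and -0.74) and LOC102578902 (-1.28 and -0.97).

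The genotype effect could differ in size or in sign. The genotype effect itself was called in 29.0% of tested clones in the biotic control and in 22.6% in the abiotic control. Of the 383 clones that differed, 92 were called on the same side of 0 in both controls, 64 of them higher and 28 lower in the biotic control. Another 145 were called in the biotic control alone and 110 in the abiotic control alone, and 2 in neither. In 34 the genotype effect was called on opposite sides of 0, 23 of them below 0 in the biotic and above 0 in the abiotic control and 11 the reverse. These 34 held 3 METK1 clones and 7 numbered loci, among them LOC102604230, LOC102589404, LOC102604560, LOC102586657 and LOC102578902 (lower in the biotic control) and LOC102604696 and LOC102577582 (higher). The 383 clones were chosen by their control difference, which favours calls on opposite sides of 0 or in a single control. The like split over all tested clones is not given here, so these counts are a description and nothing is read from them.

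The single abiotic control array with exchanged dyes, which entered no fit, was set against the same 3 biotic arrays. Those arrays helped to choose the called clones, so like signs follow in part from the shared arrays, and the shares below are a description. Of 380 called clones with a value on it, 374 (98.4%) had the same sign with it in place of the abiotic arrays, beside 67.8% of 9838 tested clones. It lay beyond all biotic arrays on the same side for 362 (95.3%), beside 52.9%. The median difference of the higher clones was 0.67 with this array and 0.91 with the standard arrays, and that of the lower clones -0.91 with each.

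The treated arrays of the 2 sets were used to describe whether the control difference was also seen after 4 h and 8 h. Their values did not enter the control difference, but the spread of each clone was estimated from all 30 arrays together. Calls in the controls and in the treated arrays are therefore not independent. The 12 arrays with harpin or megaspermin were set against the 6 arrays with xanthine oxidase. Treatment and set cannot be told apart in that difference. It was called for 41.6% of 6608 tested clones, 20.7% higher and 20.9% lower in the biotic set, and the matches below stand against that background. Of 337 called control differences tested there, 204 (60.5%) were called in the same direction, 39 in the opposite direction, and 94 did not pass. With the compared groups fitted alone, 311 of 625 called control differences (49.8%) were called in the same direction. Of all 6602 clones tested in both, 27.3% were called in the direction of their control difference. Of the 178 clones lower in the biotic control 119 were called lower again, 8 were called higher and 51 did not pass. Of the 159 higher clones 85 were called higher, 31 lower and 43 did not pass. Signs were the same for 84.3% of the lower and 62.9% of the higher clones, against 58.0% over all 6602 clones. At 4 h, where 23.5% of all tested clones were called in either direction, 181 of 350 control differences were called in the same direction. The like share over all 7303 clones was 15.3%. At 8 h, with 34.8% called in either direction, it was 166 of 350, beside 23.1% of all 7250 clones.

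Without 1 of the control arrays the count of 204 was 105 of 166 tested (biotic replicate 1), 132 of 214 (biotic replicate 2), 125 of 199 (abiotic replicate 1), 119 of 209 (abiotic replicate 2) or 128 of 194 (abiotic replicate 3). The change from controls to treated arrays, tested as the difference of the 2 differences, was called for 8.94% of 6602 clones and for 122 of the 337. It was called for 76 of the 159 higher and 46 of the 178 lower clones. These clones were chosen by their control difference, which is also part of the change, so the share of changes and their direction toward 0 follow in part from that choice and nothing is read from them. For 189 clones the treated difference had the same direction and the change did not pass.

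**Figure D4:**
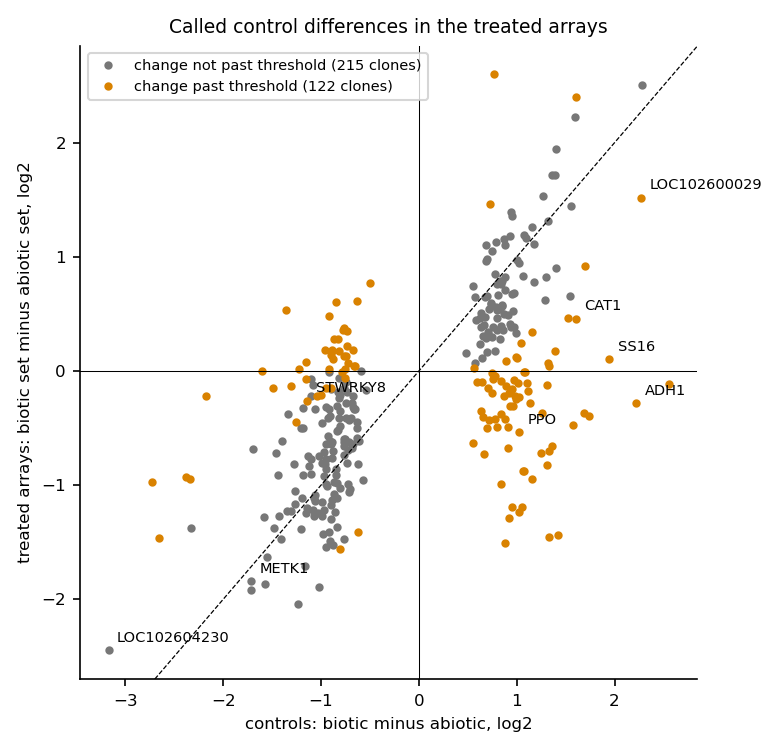
Control difference (x axis) and difference of the treated arrays between the biotic and the abiotic set (y axis), both in log2 units, for the 337 called clones tested in both, with the 122 clones whose change was called in orange and the line of equal values dashed. METK1 and LOC102604230 lie near the line, while ADH1 and PPO lie below 0 on the y axis and SS16 clone 148468 lies at 0.10.

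METK1 was also lower in the biotic set in the treated arrays. All 9 clones were called there, with differences of -0.73 to -1.84, and no change passed (limma adjusted p from 0.196 to 0.899). Clone 151452 had a treated difference of -1.84 ± 0.18 (limma adjusted p = 2.88e-09) beside its control difference of -1.71, with a change of 0.13 ± 0.34 (limma adjusted p = 0.849). Over the 9 clones the median genotype effect was -0.25 in the biotic control, -0.19 and -0.18 at 4 h and 8 h of harpin, and 0.23 and -0.52 at 4 h and 8 h of megaspermin. It was 0.62 in the abiotic control and 0.80 and 1.13 at 4 h and 8 h of xanthine oxidase. The abiotic set stood above the biotic set in each of these medians.

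MS clone 137653 (-0.41 ± 0.11, limma adjusted p = 0.00499), PHA2 clone 139857 (-0.64 ± 0.15, limma adjusted p = 0.000957), PEST2 (0.58 ± 0.13), PK (0.39 ± 0.12), STUGE45 (0.66 ± 0.12) and CAT1 clone 152782 (0.82 ± 0.13, limma adjusted p = 1.77e-05) also had a called treated difference in the direction of the controls, with no called change. With the times taken apart, only CAT1 clone 152782 among these was called at both 4 h and 8 h. MS clone 137653, PHA2 clone 139857 and PEST2 were called at 4 h alone, and PK and STUGE45 at 8 h alone. These differences average harpin and megaspermin, which were not alike. For PK at 8 h the genotype effect was 0.046 with harpin, 1.35 with megaspermin and 0.077 with xanthine oxidase. In that order STUGE45 at 8 h stood at -0.275, 0.50 and -0.90. At 4 h MS clone 137653 stood at -0.012, 1.08 and 1.28, PHA2 clone 139857 at 0.024, 1.25 and 1.61, and PEST2 at 1.35, 0.26 and -0.053. The MS clones did not go the same way in the treated arrays. MS clone 134111, not called in the controls, was higher in the biotic set there (0.61 ± 0.12, limma adjusted p = 0.00014). CAT1 clone 137140 kept its direction at 0.46 ± 0.11 (limma adjusted p = 0.00111), with a called change of 1.15 ± 0.21 (limma adjusted p = 0.000402). This clone was also chosen by its control difference, so nothing is read from that change. Its genotype effect was -0.33 in the biotic control and -2.03 at 4 h of megaspermin, next to -1.94 in the abiotic control and -2.11 at 4 h of xanthine oxidase.

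A change between controls and treated arrays was called for ADH1, both PPO clones, both STWRKY8 clones and 2 of 3 SS16 clones. Most of these clones were chosen by their control difference, which is also part of the change. The size and direction of their changes, given here and below, follow in part from that choice, and nothing is read from them. The control calls of PPO also depended on single arrays. ADH1 had a treated difference of -0.28 ± 0.21 (limma adjusted p = 0.307), and the change of 2.503 ± 0.41 passed (limma adjusted p = 0.000127). In the biotic set its genotype effect was 3.47 ± 0.47 (SD, n = 3) in the control, 2.22 ± 0.61 and 3.49 ± 0.25 at 4 h and 8 h of harpin and 1.81 ± 0.70 and 2.15 ± 0.66 at 4 h and 8 h of megaspermin. In the abiotic set it was 1.24 ± 0.25 in the control, 1.97 ± 0.30 at 4 h and 3.42 ± 0.27 at 8 h of xanthine oxidase. At 8 h the xanthine oxidase arrays (3.11 to 3.61) overlapped the harpin arrays (3.28 to 3.76).

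Over both times PPO was called in the opposite direction in the treated arrays, with -0.53 ± 0.18 (limma adjusted p = 0.0168) for clone 137880 and -0.49 ± 0.16 (limma adjusted p = 0.014) for clone 150205. At 4 h alone the differences were 0.43 and 0.28, in the direction of the controls, and did not pass (limma adjusted p = 0.224 and 0.402). At 8 h alone they were -1.50 and -1.26 (limma adjusted p = 3.81e-05 and 9.35e-05). In clone 137880 the genotype effect was 2.45 in the biotic control and 1.56 and 0.64 at 4 h and 8 h of harpin. It was 0.88 and -0.46 at 4 h and 8 h of megaspermin. In the abiotic set it was 1.42 in the control and 0.79 and 1.59 at 4 h and 8 h of xanthine oxidase. STWRKY8 clone 131718 had a treated difference of -0.26 ± 0.14 over both times (limma adjusted p = 0.145) and a called change of -0.88 ± 0.27 (limma adjusted p = 0.0395). At 4 h alone its treated difference was called in the direction of the controls (-0.62 ± 0.20, limma adjusted p = 0.0262). At 8 h alone it was 0.096 ± 0.20 and did not pass (limma adjusted p = 0.74). The genotype effect of this clone was 0.14 in the biotic control, 0.63 and 0.98 at 4 h and 8 h of harpin, and 0.35 and 1.38 at 4 h and 8 h of megaspermin. In the abiotic set it was 1.28 in the control and 1.11 and 1.09 at 4 h and 8 h of xanthine oxidase. STWRKY8 clone 154030, not called in the controls, was higher in the biotic set of the treated arrays (0.67 ± 0.15, limma adjusted p = 0.000911), with a change of -1.16 (limma adjusted p = 0.007). SS16 clone 148468 had a treated difference of 0.10 ± 0.18 (limma adjusted p = 0.662) and SS16 clone 131941 one of -0.47 ± 0.18 (limma adjusted p = 0.0374). SS16 clone 134519 was lower again, at -0.33 ± 0.097 (limma adjusted p = 0.00733), and its change did not pass (limma adjusted p = 0.311).

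**Figure D5:**
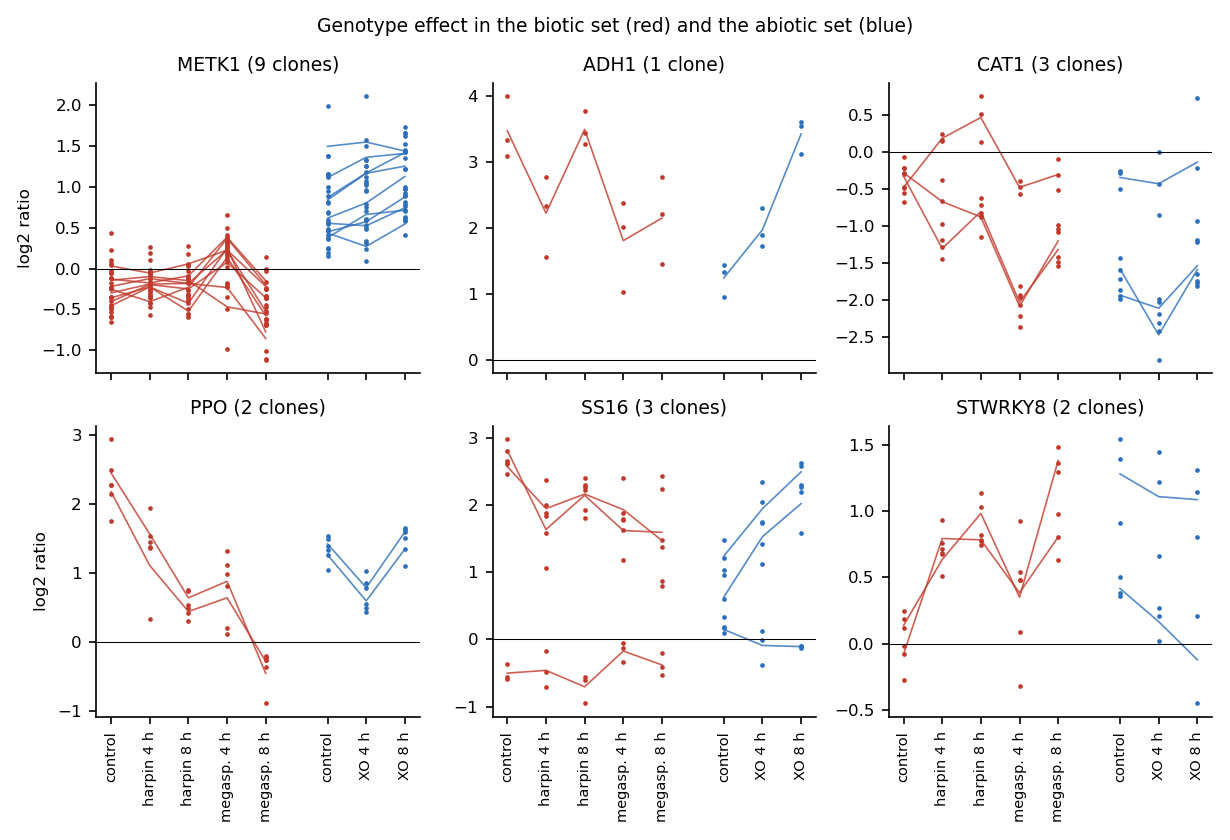
Log2 ratio (y axis) of 6 gene symbols on each array of the biotic set (red) and the abiotic set (blue) by condition (x axis, XO for xanthine oxidase and megasp. for megaspermin), with a line through the mean of each clone. In each METK1 clone the means of the abiotic set lie above those of the biotic set. Single arrays of clones 131687, 139400, 150144 and 159303 overlap between the sets at 4 h. ADH1 at 8 h of xanthine oxidase reaches the level of the biotic control at 3.42 against 3.47.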

How the data were processed

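The deposited table held 1 value per spot and array, read as log2 ratios of the 2 channels as made by the authors. The sources used here give neither log base, normalization, spot filter nor direction, and base 2 was assumed. Array medians lay near 0. Duplicate spots were paired by their place in the layout, which matched all 905 pairs of the name table, and averaged. The 1728 unpaired spots were left out. In R 4.3.3 with limma 3.58.1, means of 10 groups were fitted in a single model to 30 arrays, with empirical Bayes moderation (8.02 prior degrees of freedom), Benjamini-Hochberg adjustment within each contrast over all clones tested, and a threshold of 0.05. A clone was tested with at least 2 values in each group involved. The fit was tested on simulated data. Figures used Python 3.11.15 and matplotlib 3.10.9.

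Named were, among clones with 1 symbol, an adjusted p under 0.05 and no overlap, the 15 highest and 15 lowest with a gene symbol and the 5 highest and 5 lowest numbered loci, together with all clones of METK1, CAT1, ADH1, PPO, GBSS, ERS, MS, PHA2 and STWRKY8 and the 5 highest and 5 lowest clones without a symbol. Genes and lists were chosen with earlier results of these data known. To the lists 11 symbols were added once the names, but not the values, had been seen. Lists are described by counts and medians, with no test. Alternatives covered array centring, scaling and weights, missing values, single spots, a dye term, the groups alone, robust moderation, the replicate block and leaving out each array.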

Additional observations from a re-analysis of the deposited data

Results flagged for a closer look

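For 22 named clones the difference between the biotic and the abiotic set was not the same in controls and treated arrays by a test of that change (control difference minus treated difference, limma, adjusted p under 0.05). The change was 2.503 for ADH1 clone 154574, 2.05 and 1.84 for SS16 clones 131941 and 148468, 1.56 and 1.41 for PPO clones 137880 and 150205, and 1.15 for CAT1 clone 137140. It was -0.88 and -1.16 for STWRKY8 clones 131718 and 154030 and -0.77 for MS clone 134111, of which 154030 and 134111 were not called in the controls. Among numbered loci it was 2.02 for LOC102577712 clone 142744, 1.25 for LOC102585483 clone 155552, 0.78 for LOC102604696 clone 139807 and 0.75 for LOC102600029 clone 131370. It was -1.19 for LOC102604560 clone 154181 and -1.75 for LOC102589404 clone 142980. Among clones without a symbol it was 2.67 for 131536, 2.13 for 159359, 2.05 for 135203, -0.80 for 137027, -1.40 for 148181, -1.45 for 134286 and -1.96 for 136565. Most of these clones were chosen by their control difference, which is part of the change. Treatment and culture set cannot be told apart in the treated arrays, and the cause of these changes was not tested.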

How the results depend on the processing

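The count of called control differences, 383, was 741 with the compared groups fitted alone, 947 with arrays scaled to a common spread and 1346 with array weights, and ran from 182 to 290 on leaving out 1 control array. All 383 were also called with array weights. The treated difference was called for 1717 clones on the 4 h arrays alone (2748 in the model of both times) and for 2333 to 2698 without 1 array. The change between controls and treated arrays, 590, was 1834 with array weights and 380 with the first spot alone, and ran from 339 to 748 without 1 array: 339 without biotic control replicate 1, 348 without abiotic control replicate 1 and 386 without abiotic control replicate 3. Control differences called again in the treated arrays, 204 of 337 (60.5%), were 311 of 625 (49.8%) with groups alone. They were 442 of 804 (55%) scaled and 551 of 1143 (48.2%) with array weights, so the counts rose while the shares fell. Without 1 array the count was 105 to 210. With a replicate block these counts were 350, 2656, 539 and 189, and PPO clone 150205 and STUGE45 lost their calls (limma adjusted p = 0.0519 and 0.0554). The numbers did not pair the arrays: deviations of same-numbered arrays had correlations of -0.036, -0.085 and -0.0074 over clones. Of the named clones 1 changed sign, CAT1 clone 154260, at 0.085 with the second spot alone, and it was not called in any setting. In the settings that kept every array, 594 of the values of named clones kept their direction and side of the threshold, 13 passed it newly (ERS, MS clones 155719, 158788 and 162738, METK1 clone 150144 and PHA2 clone 153330, each with array weights and with scaling or the groups alone) and 8 lost the call. On leaving out 1 array 43 lost it, 292 did not and 1 passed newly. The number of arrays, 3 a group, limits the precision. The normalization behind the deposited ratios, the log base and the direction could not be examined.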

Other observations

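Clones without a gene symbol, 9362 of the 10223 tested, held many of the largest control differences. The highest was clone 131536, with 3.33, 2.65 and 2.09 on the biotic and 0.28, -0.58 and 0.69 on the abiotic arrays. Its control difference was 2.56 ± 0.31 (limma adjusted p = 1.45e-05), and its treated difference over both times was -0.11 ± 0.19 (limma adjusted p = 0.667). At 4 h alone the treated difference was 0.70 (limma adjusted p = 0.0615), and at 8 h alone it was called at -0.92 (limma adjusted p = 0.0127). Clone 153428 read -1.80, -1.69 and -2.05 on the biotic and -3.91, -4.11 and -4.37 on the abiotic arrays, a difference of 2.28 ± 0.28 (limma adjusted p = 5.33e-06). It kept that difference in the treated arrays at 2.51 ± 0.17 (limma adjusted p = 3.41e-12). The abiotic array with exchanged dyes read -2.42 for this clone, nearer to the biotic arrays, and the difference with that array was 0.57. All the treated arrays compared had the standard dye orientation. Clone 159359 stood at 1.74 ± 0.37 (limma adjusted p = 0.00474), and without biotic replicate 1 at 1.31 (limma adjusted p = 0.0793). Clones 135203 and 137027 stood at 1.68 ± 0.27 and 1.60 ± 0.22, and with the array of exchanged dyes at 1.30 and 0.83.

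At the low end clone 134286 read -2.63, -2.39 and -2.37 on the biotic arrays and -0.020, -0.43 and 0.18 on the abiotic arrays. The genotype effect was far below 0 in the biotic control only, and the difference was -2.38 ± 0.25 (limma adjusted p = 6.32e-07). Clones 148181 (-2.34 ± 0.30), 141972 (-2.33 ± 0.29), 136565 (-2.18 ± 0.32) and 132949 (-1.72 ± 0.20) followed. Clone 132949 stood at -1.92 ± 0.12 in the treated arrays (limma adjusted p = 7.07e-13). For clone 148181 the treated difference was -2.56 at 4 h and 0.67 at 8 h, both called (limma adjusted p = 2.96e-08 and 0.0435), so its sign turned between the times.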
